A study of Mus musculus with 8 samples.

Results

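The genes described here are 53 mouse genes of DNA replication and S phase, measured by RNA-seq in antigen-specific CD4 T cells with and without an induced excess of the transcription repressor Bach2. They were taken as a fixed list of gene symbols, chosen with earlier results of these data known. Each symbol matched 1 Ensembl gene among the 39179 in the deposited count files. All 53 passed the filter on low counts, as did 11475 genes in all. They were sorted by the step they serve: origin licensing (6 genes), the helicase and its activation (14), polymerases and other fork proteins (19), nucleotide supply (5), chromatin copying (4) and G1/S factors (5).

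The 8 libraries fall into 4 groups of 2: Tfh cells with the Bach2 vector, Tfh cells with the empty vector (EV), non-Tfh cells with the Bach2 vector and non-Tfh cells with EV. Tfh cells, the helpers of the B cell follicle, were sorted as CD44hi CXCR5+ PD-1+, and non-Tfh cells of the same transfer as CD44hi CXCR5- PD-1-. In all 4 groups the cells came from Smarta mice, which carry a transgenic T cell receptor, crossed to CreERT2 mice, whose recombinase acts once tamoxifen is given. They had been transduced by retrovirus, put into C57BL/6 hosts and activated by a subcutaneous immunization with peptide GP61-80 and nitrophenol on mouse serum albumin. Tamoxifen was injected on day 5, and Thy-1.1+ cells were sorted from pooled inguinal lymph nodes 18 hours later, on day 6. The labels describe the injection as the step that induces Bach2 and do not say separately whether EV hosts received it. They also do not say whether the replicates of a group are separate animals or cultures, so p-values measure only the spread between these libraries.

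A cell copies its DNA once per division. In G1 the origin recognition complex, Cdc6 and Cdt1 load the ring-shaped MCM2-7 helicase onto origins, and cyclin E with its kinase, the Cdc7-Dbf4 kinase, Cdc45, Mcm10 and the GINS complex then switch it on. Polymerases alpha, delta and epsilon copy the strands with the help of the sliding clamp PCNA, its loader RFC and the single-strand binding complex RPA, while ribonucleotide reductase and other enzymes supply deoxynucleotides. Many of these genes are transcribed late in G1 under E2F factors. Activated helper T cells divide fast for some days after immunization and then hold much RNA of these genes.

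Library totals ran from 7862879 to 9889859 counts, so that 3 counts, the most a count of 0 allows, came to 0.301 to 0.38 CPM, the count scaled to a common effective library size. Bach2 itself, the check of the vector labels, was 121 and 135 CPM in Tfh cells with Bach2 against 11.2 and 14.1 CPM in Tfh cells with EV, and 130.5 and 157.5 CPM in non-Tfh cells with Bach2 against 24.9 and 28.9 CPM in non-Tfh cells with EV. These reads hold vector and endogenous transcripts together. Of the sorted proteins, the gene of CXCR5 had 648 and 576.5 CPM in Tfh cells with Bach2 and 815 and 694 CPM in Tfh cells with EV, against 23.5 and 17.4 CPM in non-Tfh cells with Bach2 and 28.2 and 17.4 CPM in non-Tfh cells with EV, and Pdcd1, the gene of PD-1, was likewise higher in Tfh cells (log2 change 2.15, adjusted p = 0.00968 with Bach2 and log2 change 1.61, adjusted p = 0.026 with EV). The summed level of 8 Tfh markers was 2565 to 3009 CPM in Tfh cells with Bach2 and 3175 to 3593 CPM in Tfh cells with EV, against 1005 to 1111 CPM in non-Tfh cells with Bach2 and 1470 to 1533 CPM in non-Tfh cells with EV. Icos, a costimulatory receptor gene among the 8, had negative estimates in Tfh over non-Tfh cells (log2 change -0.24, adjusted p = 0.11 with Bach2 and log2 change -0.48, adjusted p = 0.00442 with EV). All 8 markers of CD4 T cells had counts in every group.

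In Tfh cells, many replication genes had lower levels with the Bach2 vector. Of 53 genes, 22 fell (41.5%) and 0 rose at a Benjamini-Hochberg adjusted p under 0.05 (edgeR, quasi-likelihood, over all genes tested). Across all 11475 genes, 1.16% fell and 0.549% rose, so that 22 of the 133 genes that fell were replication genes. The median log2 fold change was -0.54 over the 53 genes and -0.00054 over all genes tested, and 50 of 53 estimates were negative. In 47 genes both Bach2 libraries lay below both EV libraries, an ordering that 22.9% of all genes showed. Summed over the list, the level was 4407 and 4142 CPM in Tfh cells with Bach2, against 5295 and 5798 CPM in Tfh cells with EV. In bulk RNA, fewer cells in S phase and less of each transcript per cell cannot be told apart.

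The number of calls depended strongly on single libraries. Without replicate 2 of the Tfh cells with EV, 2 of the 53 genes passed the threshold (Cdc6 and Mcm5, beside 0.127% of all genes), and without replicate 2 of those with Bach2 3 passed (Cdc6, Mcm5 and Uhrf1, beside 0.228%). The medians stayed at -0.45 and -0.49.

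**Figure D1:**
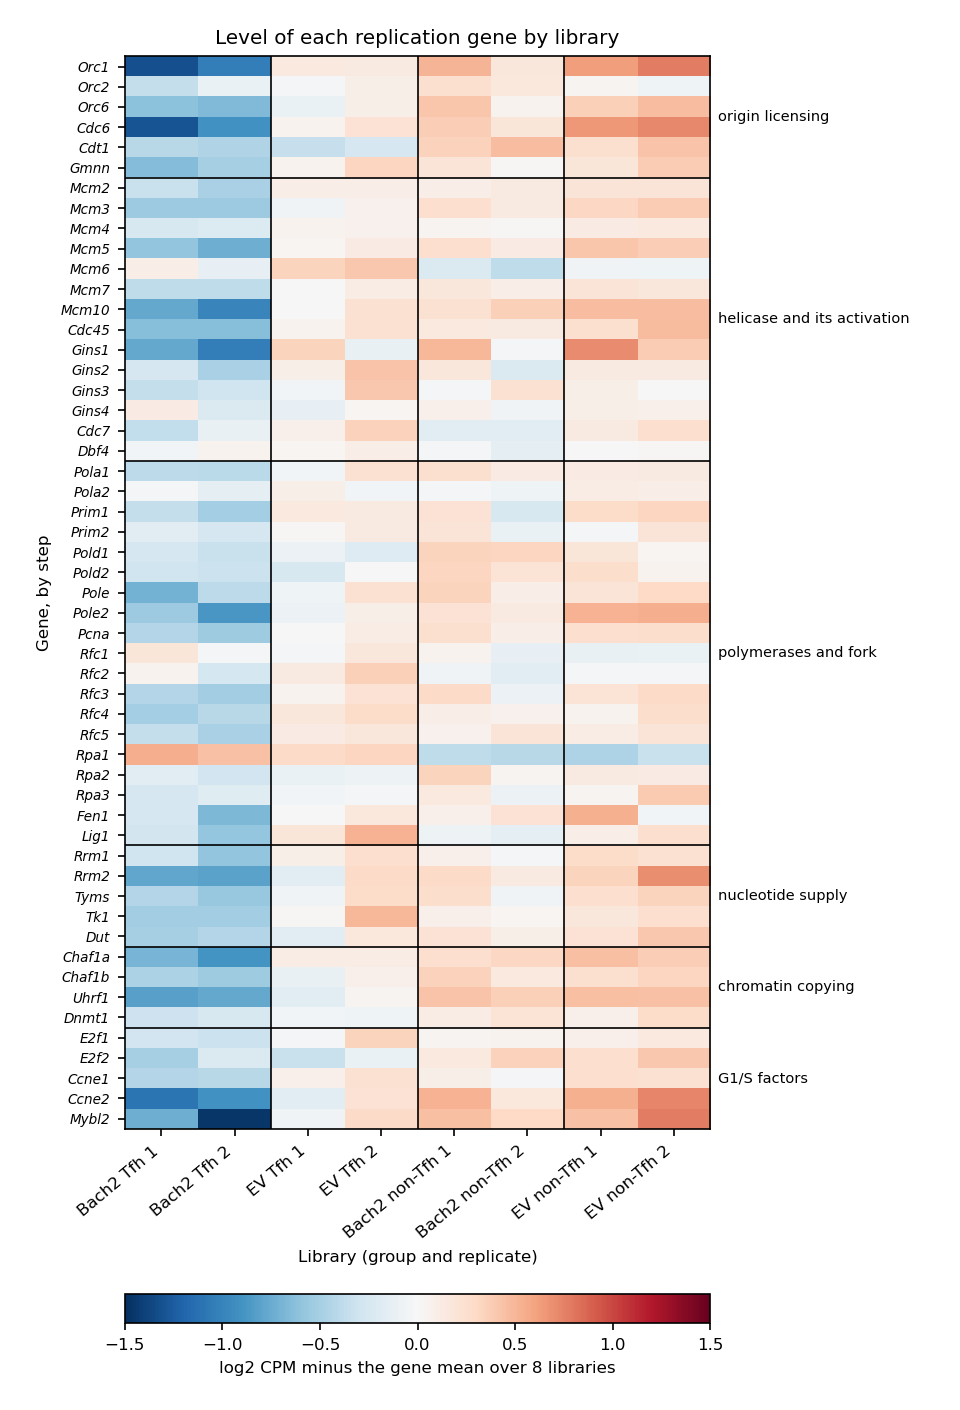
Level of the 53 genes (rows, by step) in the 8 libraries (columns), as log2 CPM minus the mean of the gene over all libraries, with blue below and red above that mean. The 2 libraries of Tfh cells with Bach2 are the bluest columns in most rows, while Rpa1 and Mcm6 were higher in Tfh than in non-Tfh libraries of the same vector.

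For each step, the promoter window is printed of the gene with the smallest adjusted p among those with a window in the table (Ccne2 has none, so Mybl2 stands for the G1/S factors), because these genes fell in the same comparison, and that of Rpa1, chosen after its values were seen, because it did not. Each holds 250 bases before and 50 after the start, 5′ to 3′ on the strand of the gene, from RefSeq on GRCm38.p6, with the farthest upstream RefSeq start where a gene has several. Capitals mark any match, on either strand, to the E2F-type motifs TTCCCGC and TTGGCGC, to CCAAT (bound by NF-Y), to the CHR-type motifs TTTGAA and TTCGAA, or to TGAGTCA (bound by AP-1 and Bach factors). Read on the other strand TTGGCGC ends in CCAA, so it can overlap a CCAAT match.
Cdc6 (chr11:98907901-98908200, plus strand): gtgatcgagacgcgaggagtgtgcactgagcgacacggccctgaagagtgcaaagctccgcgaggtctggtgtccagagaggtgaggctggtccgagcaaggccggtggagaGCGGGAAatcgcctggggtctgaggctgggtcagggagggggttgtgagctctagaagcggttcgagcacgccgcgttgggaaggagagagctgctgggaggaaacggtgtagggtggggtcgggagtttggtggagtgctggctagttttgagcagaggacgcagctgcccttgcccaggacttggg
Mcm5 (chr8:75109259-75109558, plus strand): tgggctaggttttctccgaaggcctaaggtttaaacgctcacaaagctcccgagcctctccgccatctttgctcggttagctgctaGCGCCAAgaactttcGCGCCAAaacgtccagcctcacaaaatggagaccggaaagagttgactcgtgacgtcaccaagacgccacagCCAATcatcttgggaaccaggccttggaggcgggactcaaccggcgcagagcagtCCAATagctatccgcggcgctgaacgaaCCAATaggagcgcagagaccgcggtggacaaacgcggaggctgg
Pcna (chr2:132253131-132253430, minus strand): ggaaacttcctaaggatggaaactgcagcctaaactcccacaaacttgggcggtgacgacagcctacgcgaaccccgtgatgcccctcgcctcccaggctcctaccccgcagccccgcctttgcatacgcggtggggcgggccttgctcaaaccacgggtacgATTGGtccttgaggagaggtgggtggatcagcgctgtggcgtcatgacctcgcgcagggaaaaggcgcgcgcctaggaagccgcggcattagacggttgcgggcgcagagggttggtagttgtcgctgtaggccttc
Rrm1 (chr7:102441445-102441744, plus strand): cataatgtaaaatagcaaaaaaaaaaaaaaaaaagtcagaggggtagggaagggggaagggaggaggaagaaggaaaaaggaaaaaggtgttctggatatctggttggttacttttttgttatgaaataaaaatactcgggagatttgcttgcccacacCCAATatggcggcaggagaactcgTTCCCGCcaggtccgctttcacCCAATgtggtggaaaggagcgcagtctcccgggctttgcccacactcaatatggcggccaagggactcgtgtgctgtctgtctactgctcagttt
Uhrf1 (chr17:56303087-56303386, plus strand): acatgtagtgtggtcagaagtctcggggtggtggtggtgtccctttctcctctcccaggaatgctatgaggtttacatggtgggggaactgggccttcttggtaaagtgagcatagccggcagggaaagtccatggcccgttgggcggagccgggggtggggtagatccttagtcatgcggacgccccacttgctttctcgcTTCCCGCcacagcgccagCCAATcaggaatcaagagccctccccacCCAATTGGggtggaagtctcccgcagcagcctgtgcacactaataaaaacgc
Mybl2 (chr2:163054385-163054684, plus strand): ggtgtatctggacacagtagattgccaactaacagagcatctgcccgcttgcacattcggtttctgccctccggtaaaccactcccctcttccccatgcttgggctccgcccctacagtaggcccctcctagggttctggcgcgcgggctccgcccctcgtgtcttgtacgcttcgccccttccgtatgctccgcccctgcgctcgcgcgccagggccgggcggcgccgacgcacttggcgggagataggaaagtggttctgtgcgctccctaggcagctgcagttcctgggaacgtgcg
Rpa1 (chr11:75348334-75348633, minus strand): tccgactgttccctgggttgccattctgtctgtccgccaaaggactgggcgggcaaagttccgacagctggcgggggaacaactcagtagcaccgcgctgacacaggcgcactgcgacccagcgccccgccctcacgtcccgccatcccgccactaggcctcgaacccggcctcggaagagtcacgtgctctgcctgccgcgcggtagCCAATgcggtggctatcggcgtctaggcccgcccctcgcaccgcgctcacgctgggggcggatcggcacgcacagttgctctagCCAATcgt

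Cdc6 holds 1 E2F-type match, on the minus strand of the gene, 138 bases before the RefSeq start. The GENCODE start of Cdc6, 98907801, lies upstream of this window, so the window is inside the gene as GENCODE gives it. The windows of Mcm5, Mybl2 and Rpa1 lie wholly upstream of the GENCODE starts of these genes (75109569, 163054687 and 75348324). Their last 50 bases follow the RefSeq start but not the GENCODE start. Mcm5 holds 2 E2F-type and 3 CCAAT matches, Rrm1 1 and 2, and Uhrf1 1 and 3, of which 2 share bases on opposite strands. Pcna holds 1 CCAAT match and Rpa1 2, and Mybl2 holds no exact match to the 6 motifs. Only exact matches were counted, so sites that differ by 1 base are missed. Examples are ttggcgg in the Mybl2 window (beside TTGGCGC) and gtcccgc in the Rpa1 window (beside TTCCCGC). Over the 44 of 53 genes matched to a window, 1 or both E2F-type motifs were present in 22 (50%), against 13.1% of 8721 tested genes with a window and 6.96% of all 27025 windows of this length. They were present in 8 of the 20 genes with a window that fell in Tfh cells and in 14 of the 24 that did not pass the threshold. In the 250 bases before the start alone they were present in 13 of the 44 (29.5%), against 10.8% of tested genes, with 6 of the 20 and 7 of the 24.
CCAAT was present in 59.1% of the 44 windows, 39.7% of tested genes and 38% of all windows. The CHR-type motifs were present in 20.5%, 14% and 19.5%. TGAGTCA was in 0 of the 44 windows, which allows a share of up to 8.04% (exact 95% binomial bound), 3.14% of tested genes and 5.17% of all windows. The median GC content was 60.7% in the 44 windows, 61% in tested genes and 52.7% in all.

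Among the 6 origin licensing genes, 3 fell in Tfh cells with Bach2. Cdc6 (GRCm38, chromosome 11, 98907801 to 98923940), the ATPase that helps load the helicase and is made anew in each cycle, had 13.7 and 17.9 CPM in Tfh cells with Bach2 and 34.8 and 38.9 CPM in Tfh cells with EV. The groups lay well apart, and the fall (log2 fold change -1.23, SE 0.156, adjusted p = 0.00339) passed the threshold under all 17 alternatives. Orc1, the origin recognition subunit whose level follows the cell cycle, had 3.58 and 4.35 CPM in Tfh cells with Bach2 and 9.93 and 9.87 CPM in Tfh cells with EV. This was the most negative estimate of the 53 (log2 fold change -1.32, SE 0.244, adjusted p = 0.0178), at a low level, from 33 and 36 counts with Bach2 and 99 and 78 with EV.
Gmnn, which encodes geminin, the inhibitor that holds Cdt1 in check after origins fire, had 22.6 and 25.1 CPM in Tfh cells with Bach2 and 36.8 and 44.2 CPM in Tfh cells with EV (log2 fold change -0.76, SE 0.148, adjusted p = 0.0198). Both Bach2 libraries lay below both EV libraries.
Cdt1, the loading factor that geminin binds, had 23.3 and 22.7 CPM in Tfh cells with Bach2 and 24.5 and 26.2 CPM in Tfh cells with EV, the smallest difference of this step (log2 fold change -0.14, SE 0.141, adjusted p = 0.703). Orc6 (log2 change -0.63, adjusted p = 0.0597) and Orc2 (log2 change -0.26, adjusted p = 0.354), other subunits of the origin recognition complex, did not pass the threshold.

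**Figure D2:**
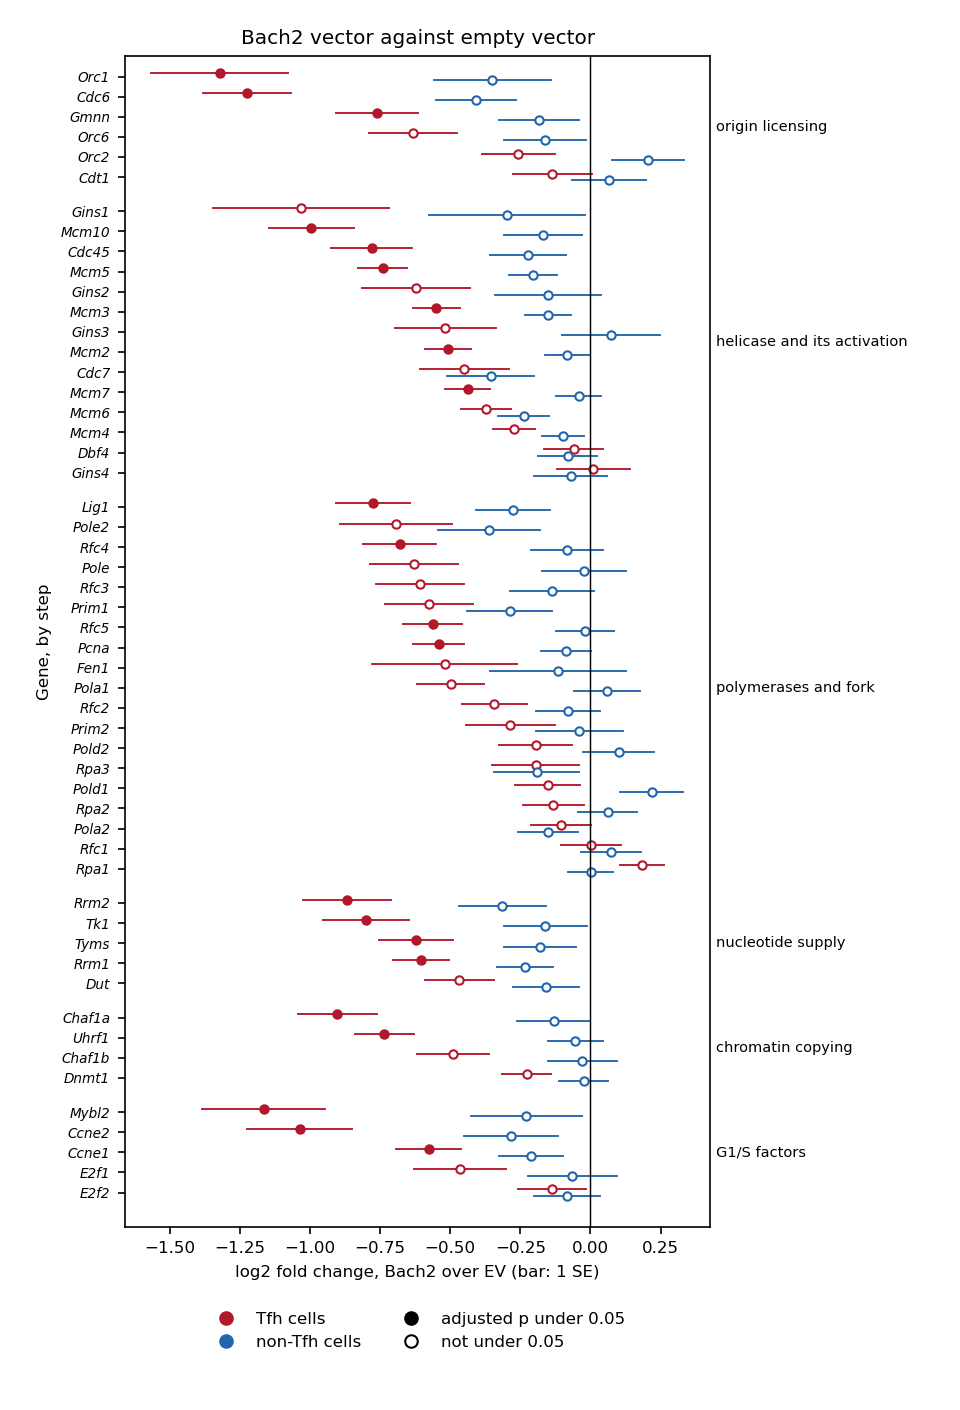
Log2 fold change of Bach2 over EV for each of the 53 genes (rows, by step, ordered by the Tfh estimate) in Tfh cells (red) and non-Tfh cells (blue). Bars are 1 SE and filled points have an adjusted p under 0.05: 22 points are filled in Tfh cells and 0 in non-Tfh cells.

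Of the 14 genes of the helicase and its activation, 6 fell in Tfh cells, with a median log2 fold change of -0.51. Mcm5 (chromosome 8, 75109569 to 75128439), a subunit of the MCM2-7 ring, had 151 and 137 CPM in Tfh cells with Bach2 and 233 and 249 CPM in Tfh cells with EV. The 2 groups were separate, and the fall (log2 fold change -0.74, SE 0.0871, adjusted p = 0.00183) also passed under all 17 alternatives. Mcm3, another subunit, had 160.3 and 159.9 CPM in Tfh cells with Bach2 and 224.5 and 245 CPM in Tfh cells with EV (log2 fold change -0.55, SE 0.0843, adjusted p = 0.00877), again without overlap. Mcm2 (log2 change -0.51, adjusted p = 0.0103) and Mcm7 (log2 change -0.44, adjusted p = 0.0178) fell as well. Mcm4 (log2 change -0.27, adjusted p = 0.087) and Mcm6 (log2 change -0.37, adjusted p = 0.053) had negative estimates that did not pass. Mcm6 was called lower by DESeq2 and with no filter on low counts, and Mcm4 by neither.
Mcm10, which helps to activate the loaded helicase, had 16.4 and 14.1 CPM in Tfh cells with Bach2 and 28.2 and 32.9 CPM in Tfh cells with EV (log2 fold change -0.995, SE 0.152, adjusted p = 0.00877). It had the most negative estimate of the 6 helicase genes that fell, without overlap. Cdc45, a partner of the active helicase, fell too (log2 change -0.78, adjusted p = 0.0178).
The 4 GINS genes, whose products complete the active helicase, did not pass: Gins1 had a log2 estimate of -1.03 at 3.07 CPM with Bach2 and 6.27 CPM with EV (adjusted p = 0.118), Gins2 -0.62 and Gins3 -0.52. Gins4 had 58.2 and 45.9 CPM in Tfh cells with Bach2 and 49.2 and 54.4 CPM in Tfh cells with EV, an overlap with an estimate near 0 (log2 fold change 0.01, SE 0.131, adjusted p = 0.981). The kinase genes Cdc7 (log2 change -0.45, adjusted p = 0.172) and Dbf4 (log2 change -0.059, adjusted p = 0.843) did not pass either.

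Of the 19 polymerase and fork genes, 4 fell in Tfh cells, a smaller share than in any other step of the list. Pcna, the sliding clamp, had 94.6 and 88.1 CPM in Tfh cells with Bach2 and 128 and 139 CPM in Tfh cells with EV (log2 fold change -0.54, SE 0.092, adjusted p = 0.0114). Lig1, the ligase that seals Okazaki fragments, had 65.5 and 53.03 CPM in Tfh cells with Bach2 and 89.7 and 114 CPM in Tfh cells with EV (log2 fold change -0.78, SE 0.133, adjusted p = 0.0129). In neither gene did the groups overlap, but the 2 EV libraries of Lig1 differed more from each other than those of Pcna.
Rfc5, a clamp loader subunit, had 55.5 and 50.4 CPM in Tfh cells with Bach2 and 76.95 and 79.5 CPM in Tfh cells with EV (log2 fold change -0.56, SE 0.106, adjusted p = 0.0178), and Rfc4, another, fell by a like amount (log2 change -0.68, adjusted p = 0.0195). Rfc1, the large loader subunit, had 126 and 108.5 CPM in Tfh cells with Bach2 and 109 and 125 CPM in Tfh cells with EV, which overlapped (log2 fold change 0.0025, SE 0.106, adjusted p = 0.995). The subunits of this 5-part loader thus ranged from -0.68 to 0.0025 on the log2 scale, with Rfc3 at -0.61 and Rfc2 at -0.34, neither past the threshold.
Of the 8 genes of polymerases alpha, delta and epsilon with primase 0 passed by edgeR's quasi-likelihood test, 4 had an unadjusted p under 0.05, and DESeq2 called Pola1 and Pole. The adjusted p ran from 0.0533 for Pola1 (-0.50) and 0.0597 for Pole (-0.63) to 0.703 for Pola2 (-0.11), with log2 fold changes in parentheses. The flap nuclease gene Fen1 (log2 change -0.52, adjusted p = 0.35) and the RPA genes Rpa2 (log2 change -0.13, adjusted p = 0.614) and Rpa3 (log2 change -0.20, adjusted p = 0.602) did not pass.

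All 5 nucleotide supply genes had both Bach2 libraries below both EV libraries in Tfh cells, and 4 fell. Rrm1, the large subunit of ribonucleotide reductase, had 224 and 183 CPM in Tfh cells with Bach2 and 292 and 328 CPM in Tfh cells with EV (log2 fold change -0.60, SE 0.101, adjusted p = 0.0107). Rrm2, its S phase subunit, had 169 and 167 CPM in Tfh cells with Bach2 and 259.6 and 355.5 CPM in Tfh cells with EV (log2 fold change -0.87, SE 0.157, adjusted p = 0.0288). The 2 Bach2 libraries agreed closely for Rrm2, and the EV libraries were spread.
Tk1, the thymidine kinase of cycling cells, had 28.9 and 28.9 CPM in Tfh cells with Bach2 and 42.03 and 58.8 CPM in Tfh cells with EV (log2 fold change -0.80, SE 0.153, adjusted p = 0.0188). Tyms, which makes thymidylate, had 60.2 and 55.1 CPM in Tfh cells with Bach2 and 78.8 and 98.96 CPM in Tfh cells with EV (log2 fold change -0.62, SE 0.133, adjusted p = 0.03). For both, replicate 2 of the EV cells was the highest of the 4 Tfh libraries. Dut, which breaks down dUTP, had 58.8 and 61.4 CPM in Tfh cells with Bach2 and 73.9 and 92.5 CPM in Tfh cells with EV, with no overlap but short of the threshold (log2 fold change -0.47, SE 0.121, adjusted p = 0.0704).

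Of the 4 chromatin copying genes, 2 fell in Tfh cells. Uhrf1 (chromosome 17, 56303321 to 56323486), which brings the DNA methyltransferase Dnmt1 to newly copied DNA, had 45.7 and 47.4 CPM in Tfh cells with Bach2 and 72.1 and 82.9 CPM in Tfh cells with EV (log2 fold change -0.73, SE 0.105, adjusted p = 0.00571). Chaf1a, the large subunit of the chromatin assembly factor CAF-1, had 18.1 and 15.8 CPM in Tfh cells with Bach2 and 31.7 and 31.9 CPM in Tfh cells with EV (log2 fold change -0.90, SE 0.14, adjusted p = 0.00903). Neither overlapped. Chaf1b, its partner, had 34.4 and 32.98 CPM in Tfh cells with Bach2 and 44.2 and 50.6 CPM in Tfh cells with EV (log2 fold change -0.49, SE 0.128, adjusted p = 0.0715). Dnmt1 had 200.1 and 209.7 CPM in Tfh cells with Bach2 and 242.5 and 237 CPM in Tfh cells with EV (log2 fold change -0.23, SE 0.088, adjusted p = 0.217), the smallest difference of this step.

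Of the 5 G1/S factors, 3 fell in Tfh cells. Ccne2, one of the cyclin E genes, had 12.5 and 14.1 CPM in Tfh cells with Bach2 and 23.8 and 31.0 CPM in Tfh cells with EV (log2 fold change -1.04, SE 0.186, adjusted p = 0.0175). Ccne1, the other, had 38.2 and 38.5 CPM in Tfh cells with Bach2 and 54.4 and 60.2 CPM in Tfh cells with EV (log2 fold change -0.58, SE 0.116, adjusted p = 0.0227). Both cyclin genes were lower without overlap, and the estimate was larger for Ccne2.
Mybl2, which encodes B-Myb, a transcription factor of S and G2 genes, had 17.8 and 10.8 CPM in Tfh cells with Bach2 and 28.6 and 36.1 CPM in Tfh cells with EV (log2 fold change -1.17, SE 0.218, adjusted p = 0.0201). E2f1, an activating E2F factor, did not pass (log2 change -0.47, adjusted p = 0.173). E2f2, another, had 78.1 and 95.4 CPM in Tfh cells with Bach2 and 87.98 and 103 CPM in Tfh cells with EV, and the groups overlapped (log2 fold change -0.14, SE 0.121, adjusted p = 0.647).

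**Figure D3:**
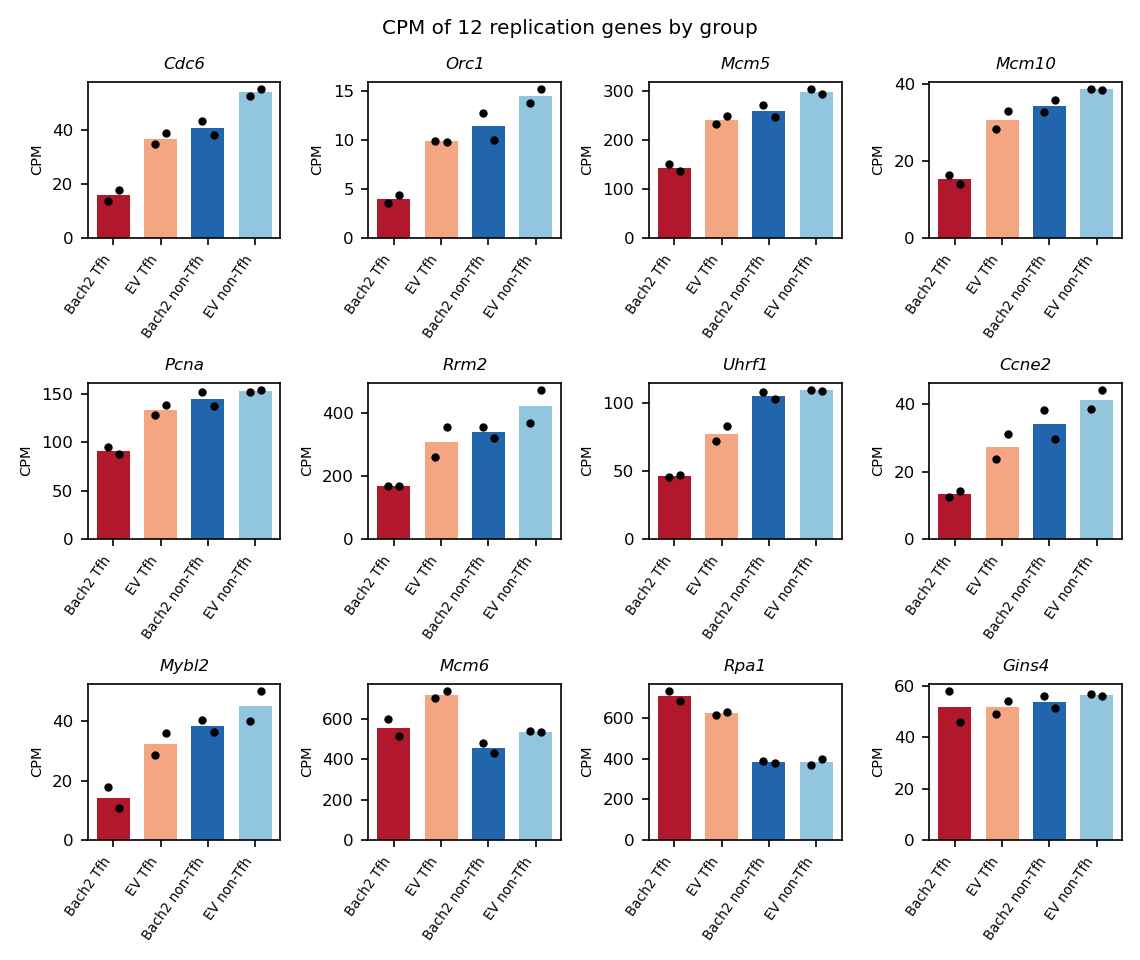
CPM of 12 genes by group (bars are means of 2 libraries, points the libraries, each panel with its own axis from 0). Cdc6, Orc1, Mcm5, Mcm10, Pcna, Rrm2, Uhrf1, Ccne2 and Mybl2 were lowest in Tfh cells with Bach2, Rpa1 was higher in both Tfh groups than in both non-Tfh groups, Mcm6 was higher in Tfh than in non-Tfh cells of the same vector, and Gins4 overlapped between the vectors in both cell types.

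With non-Tfh cells, 0 of the 53 genes passed the threshold between the Bach2 and the empty vector (edgeR), where 0.619% of all genes fell and 0.253% rose. At an unadjusted p under 0.05, 5 of 53 had a difference, 5 of them negative, beside 1188 of 11475 genes in either direction, and DESeq2 called 0. With no filter on low counts 1 gene, Rrm2, passed. The median log2 fold change was -0.13 over the 53 genes and 0.00072 over all genes, with 44 negative estimates. Both Bach2 libraries lay below both EV libraries in 26 genes, against 21.3% of all genes. The summed level was 5398 and 5077 CPM in non-Tfh cells with Bach2 and 5575 and 5844 CPM in non-Tfh cells with EV, so those ranges did not overlap either.
The largest negative estimate was that of Cdc6, with 43.2 and 38.02 CPM in non-Tfh cells with Bach2 and 52.6 and 55.2 CPM in non-Tfh cells with EV (log2 fold change -0.41, SE 0.141, adjusted p = 0.295). Mcm5 had 271 and 248 CPM in non-Tfh cells with Bach2 and 305 and 294 CPM in non-Tfh cells with EV (log2 fold change -0.21, SE 0.0852, adjusted p = 0.411). Uhrf1, in contrast, had 108 and 103 CPM in non-Tfh cells with Bach2 and 109.8 and 109 CPM in non-Tfh cells with EV (log2 fold change -0.054, SE 0.099, adjusted p = 0.921), close together. Pold1 and Orc2 had both Bach2 libraries above both EV libraries (log2 change 0.22, adjusted p = 0.543 and log2 change 0.21, adjusted p = 0.633).

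Whether the Bach2 effect differs between the cell types was tested as an interaction, in which a negative value means a stronger reduction in Tfh cells. In the edgeR fit, 0 of the 53 genes, and 0 of 11475 genes in all, passed the threshold, and DESeq2 called 0 of the 53. The smallest adjusted p among the 53 was 0.408, for Uhrf1 (log2 difference -0.68, SE 0.144). At an unadjusted p under 0.05 the interaction held 30 of the 53 genes, 30 of them negative, beside 539 of 11475 genes, 288 of them negative. The median interaction was -0.42 over the 53 genes and -0.005 over all genes, and 49 of 53 estimates were negative. With no filter on low counts, 4 genes passed (Uhrf1, Mcm5, Rrm2 and Mybl2). A difference of the vector effect between Tfh and non-Tfh cells was therefore not shown for any single gene in the main test.

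With the empty vector, 40 of 53 estimates were negative in Tfh over non-Tfh cells. Over the 53 genes the median log2 fold change was -0.16, against 0.0055 over all genes. At an unadjusted p under 0.05 (edgeR), 19 were lower in Tfh cells and 3 higher, beside 1940 and 1913 of 11475 genes. Few passed the threshold on adjusted p, at shares near or below those of all genes. Of 53 genes, 7 were lower in Tfh cells and 2 higher, that is 13.2% and 3.77%, against 11.3% and 10.6% of all genes. Both Tfh libraries lay below both non-Tfh libraries in 31 of the 53 and above them in 5, against 30.9% and 31.3% of all genes. The genes lower in Tfh cells were Cdc6 (log2 change -0.55, adjusted p = 0.0128), Cdt1 (log2 change -0.64, adjusted p = 0.00371), Mcm3 (log2 change -0.34, adjusted p = 0.00921), Mcm5 (log2 change -0.32, adjusted p = 0.0163), Uhrf1 (log2 change -0.50, adjusted p = 0.00247), E2f2 (log2 change -0.55, adjusted p = 0.00452) and Ccne2 (log2 change -0.60, adjusted p = 0.022). Cdt1 had 24.5 and 26.2 CPM in Tfh cells with EV and 36.8 and 42.1 CPM in non-Tfh cells with EV, and E2f2 had 87.98 and 103 CPM in Tfh cells and 132 and 146 CPM in non-Tfh cells with EV. For both genes, which the vector did not change past the threshold in either cell type, the cell types lay apart without overlap.
The number lower in Tfh cells was 2 without replicate 1 of the Tfh cells with EV and 1 without replicate 2 of the non-Tfh cells with EV.

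With the Bach2 vector, Tfh cells had lower levels than non-Tfh cells for most of the list. There 37 of 53 genes were lower (69.8%) and 2 higher in Tfh cells, beside 12.7% and 11.6% of all genes. Both Tfh libraries lay below both non-Tfh libraries in 45 genes and above them in 2, against 30.5% and 29.3% of all genes. The median log2 fold change was -0.58, against -0.16 with EV. The genes lower in Tfh cells included all 6 of origin licensing, all 5 of nucleotide supply and all 4 of chromatin copying, 8 of 14 of the helicase, 10 of 19 of the fork and 4 of 5 G1/S factors. This comparison and the vector comparison in Tfh cells share the Bach2 Tfh libraries. Of the 22 genes that fell with Bach2 in Tfh cells 21 were also among these 37, and Lig1 was not.
Uhrf1 had 45.7 and 47.4 CPM in Tfh cells and 108 and 103 CPM in non-Tfh cells with Bach2 (log2 fold change -1.18, SE 0.104, adjusted p = 2.43e-06), and Orc1 had 3.58 and 4.35 CPM in Tfh cells and 12.8 and 10.1 CPM in non-Tfh cells with Bach2 (log2 fold change -1.53, SE 0.24, adjusted p = 0.000345). For each, the libraries of the cell types lay far apart. Pold1, the catalytic subunit of polymerase delta, had 44.5 and 42.2 CPM in Tfh cells and 66.5 and 66.1 CPM in non-Tfh cells with Bach2 (log2 fold change -0.61, SE 0.114, adjusted p = 0.00129).
In the nucleotide step, Rrm2 had 169 and 167 CPM in Tfh cells and 356 and 321 CPM in non-Tfh cells with Bach2 (log2 fold change -1.01, SE 0.157, adjusted p = 0.00145), and Dut had 58.8 and 61.4 CPM in Tfh cells and 96.5 and 88.4 CPM in non-Tfh cells with Bach2 (log2 fold change -0.62, SE 0.121, adjusted p = 0.00176). Ccne2 had 12.5 and 14.1 CPM in Tfh cells and 38.3 and 29.6 CPM in non-Tfh cells with Bach2 (log2 fold change -1.35, SE 0.184, adjusted p = 0.000104). None of these overlapped.
Calls in this comparison rested less on single libraries, with 30 to 37 genes lower in Tfh cells when any 1 of the 8 libraries was left out.

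**Figure D4:**
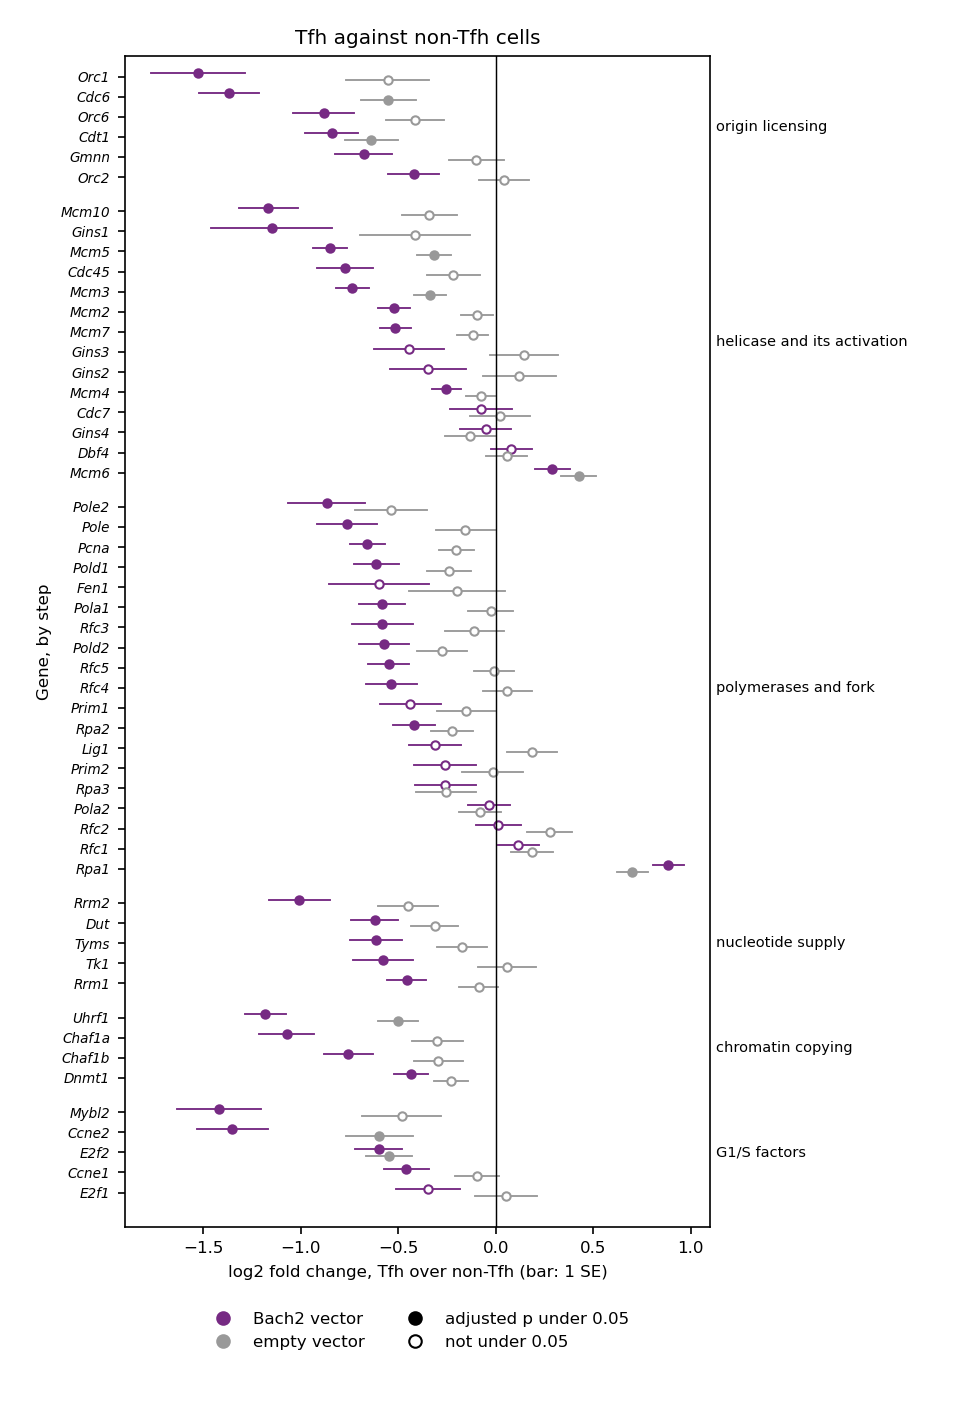
Log2 fold change of Tfh over non-Tfh cells for each of the 53 genes (rows, by step, ordered by the estimate with Bach2) with the Bach2 vector (purple) and the empty vector (grey). Bars are 1 SE and filled points have an adjusted p under 0.05: with Bach2, 37 genes were lower in Tfh cells and 2 higher, and with EV 7 were lower and 2 higher.

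Mcm6 and Rpa1, alone among the 53 genes in these calls, were higher in Tfh cells under both vectors. Rpa1 (chromosome 11, 75298166 to 75348324), the large subunit of the single-strand binding complex, had 733 and 683 CPM in Tfh cells and 388 and 379 CPM in non-Tfh cells with Bach2 (log2 fold change 0.88, SE 0.0799, adjusted p = 2.90e-06). With EV it had 615 and 631 CPM in Tfh cells and 366.5 and 400.5 CPM in non-Tfh cells (log2 fold change 0.70, SE 0.0798, adjusted p = 2.29e-05). Its groups were separate under both vectors, and its change with Bach2 in Tfh cells did not pass (log2 change 0.18, adjusted p = 0.269). The other RPA subunits were not called higher in Tfh cells: the log2 fold change of Rpa2 was -0.42 and that of Rpa3 -0.26 in Tfh over non-Tfh cells with Bach2 (adjusted p = 0.0111 and 0.258), and -0.22 and -0.25 with EV (adjusted p = 0.162 and 0.269).
Mcm6 (chromosome 1, 128331590 to 128359664) had 599 and 513 CPM in Tfh cells and 479 and 430.4 CPM in non-Tfh cells with Bach2 (log2 fold change 0.29, SE 0.0899, adjusted p = 0.0291). With EV it had 703 and 739 CPM in Tfh cells and 538 and 535 CPM in non-Tfh cells (log2 fold change 0.43, SE 0.0897, adjusted p = 0.00346). The difference with Bach2 did not pass without replicate 1 of the Tfh cells with Bach2 or without replicate 2 of the non-Tfh cells with Bach2, and that with EV passed whichever library was left out.

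The MCM2-7 ring holds 1 copy of each of its 6 subunits, so their levels were also set side by side per kb of merged exons. In CPM per kb, Mcm6 had 128 and 110.0 in Tfh cells with Bach2, 151 and 158 in Tfh cells with EV, 103 and 92.2 in non-Tfh cells with Bach2 and 115 and 115 in non-Tfh cells with EV. In every library it was above the other 5 subunits, which lay between 22.4 (Mcm2) and 83.3 (Mcm4) CPM per kb. The ratio of Mcm6 to the mean of the other 5 was 3.19 and 2.79 in Tfh cells with Bach2 and 2.77 and 2.78 in Tfh cells with EV. It was 1.71 and 1.61 in non-Tfh cells with Bach2 and 1.81 and 1.79 in non-Tfh cells with EV, below every Tfh library. The lengths count the exons of all annotated isoforms, which need not all be made in these cells, so the order between subunits is less sure than the difference between libraries.

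**Figure D5:**
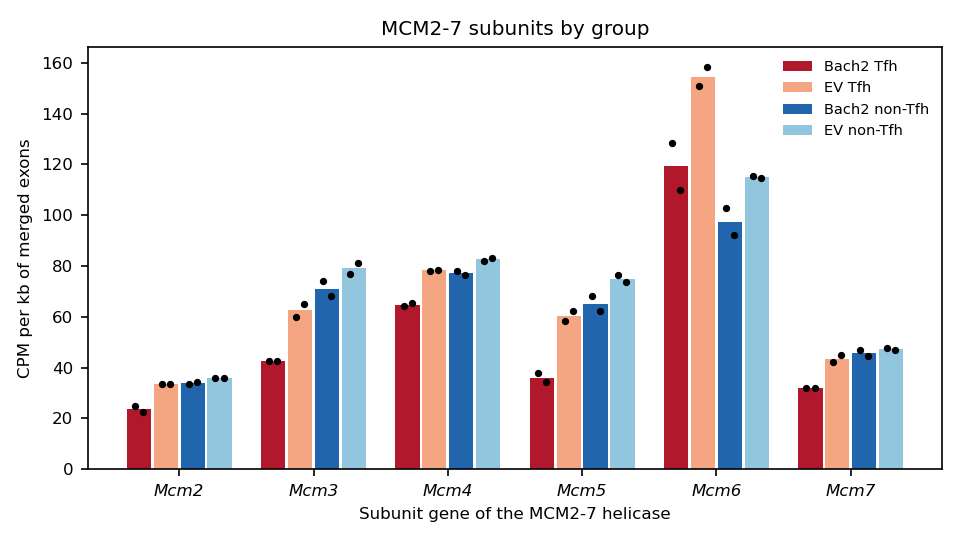
Level of the 6 MCM2-7 subunit genes in CPM per kb of merged exons, by group (bars are means of 2 libraries, points the libraries). Mcm2, Mcm3, Mcm4, Mcm5 and Mcm7 were lowest in Tfh cells with Bach2, whereas Mcm6 was lowest in non-Tfh cells with Bach2 and highest in Tfh cells with EV.

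A further 116 genes of the same pathways, of which 115 were tested (Ccnd1 was not), were read from 6 added lists. These lists too were chosen with earlier results of these data known. In Tfh cells 17 of 115 fell with Bach2 (14.8%, against 1.16% of all genes) and 0 rose, with a median log2 fold change of -0.23. In the S phase checkpoint and repair list 5 of 20 fell, among them the checkpoint kinase gene Chek1, with 7.16 and 8.33 CPM in Tfh cells with Bach2 and 16.9 and 15.1 CPM in Tfh cells with EV (log2 change -1.05, adjusted p = 0.0178), Fancd2 (log2 change -0.98, adjusted p = 0.0178) and Rad54l (log2 change -0.89, adjusted p = 0.0201). In the chromatin list 5 of 14 fell, among them the histone acetyltransferase gene Hat1 (log2 change -0.55, adjusted p = 0.0178), the histone chaperone gene Asf1b (log2 change -0.67, adjusted p = 0.0201), Hells (log2 change -0.75, adjusted p = 0.0207) and Cdca7 (log2 change -0.51, adjusted p = 0.021). In the fork list 3 of 18 fell: the checkpoint mediator gene Clspn (log2 change -0.99, adjusted p = 0.0283), Atad5, whose product unloads the clamp (log2 change -0.81, adjusted p = 0.0324), and Tipin (log2 change -0.47, adjusted p = 0.0435).
None of 16 other origin and helicase genes passed by edgeR's test, 5 had an unadjusted p under 0.05 and DESeq2 called 0. The origin subunit genes Orc3, Orc4 and Orc5 had log2 estimates of -0.19, -0.12 and 0.20. Of 20 other nucleotide genes 1 fell, the dCTP pyrophosphatase gene Dctpp1 (log2 change -0.84, adjusted p = 0.02). Of 27 other G1/S regulators 3 fell: Cdkn1a, the gene of p21, which inhibits cyclin-dependent kinases (log2 change -1.18, adjusted p = 0.00571), the repressive factor gene E2f8 (log2 change -0.80, adjusted p = 0.0178) and Tfdp1, which encodes the partner of E2F factors (log2 change -0.39, adjusted p = 0.0435). In non-Tfh cells 1 of 115 passed, Cdkn1a, with 21.4 and 20.4 CPM in cells with Bach2 and 47.5 and 45.96 CPM in cells with EV (log2 change -1.16, adjusted p = 0.00193).

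Between the cell types with EV, 10 of the 20 added nucleotide genes were lower in Tfh cells and 1 higher, beside 11.3% and 10.6% of all genes. The lower ones included the pyrimidine synthesis genes Cad, with 43.9 and 51.5 CPM in Tfh cells and 96.9 and 97.5 CPM in non-Tfh cells with EV (log2 change -1.03, adjusted p = 5.16e-05), and Umps (log2 change -0.64, adjusted p = 0.000646), and the purine synthesis gene Gart (log2 change -0.69, adjusted p = 0.000289). The higher one was Dck, a kinase that salvages deoxycytidine, with 396 and 346 CPM in Tfh cells and 173 and 172.5 CPM in non-Tfh cells with EV (log2 change 1.10, adjusted p = 7.87e-07). With Bach2 in both cell types, 11 of 20 were lower, beside 12.7% of all genes, and Dck was again higher (log2 change 1.12, adjusted p = 7.26e-07, beside 11.6% of all genes).
Myc, a transcription factor gene that drives growth and entry into the cycle, had 19.2 and 29.4 CPM in Tfh cells and 86.4 and 103 CPM in non-Tfh cells with Bach2 (log2 change -1.97, adjusted p = 4.61e-06), and 23.1 and 26.6 CPM in Tfh cells and 69.6 and 76.5 CPM in non-Tfh cells with EV (log2 change -1.56, adjusted p = 3.38e-05). Bach2 did not change it past the threshold in Tfh cells (log2 change -0.034, adjusted p = 0.951) or non-Tfh cells (log2 change 0.38, adjusted p = 0.44).

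The summed markers of Tfh cells, given above, and of B cells also lay lower with Bach2 than with EV, in Tfh and in non-Tfh cells. Their part in the results was not tested. In non-Tfh cells the B cell sum was 83.03 to 107.1 CPM with Bach2 and 128.2 to 130.6 CPM with EV. The summed level of 10 B cell markers was 159.7 to 191 CPM in Tfh cells with Bach2 and 197 to 236.5 CPM in Tfh cells with EV, nearly all of it Cd22, at 186 and 157.5 CPM with Bach2 and 230.3 and 192.5 CPM with EV. Of the 10 B cell markers, 9 had counts in Tfh cells with Bach2 and 10 in Tfh cells with EV, but the defining genes Cd79a and Ms4a1 averaged at most 0.979 CPM there (Cd79a with EV), and the germinal centre genes Mef2b and Rgs13 had 0 counts in all 8 libraries. The mitochondrial share of counts was 1.26% and 1.08% in Tfh cells with Bach2, against 1.1% and 0.953% in Tfh cells with EV, which overlapped. The library kits do not mark strand, and exons of 15 of the 53 genes overlap another gene on the opposite strand. Among those that fell, Chaf1a shared 52.5% of its exon bases with Ubxn6, and Orc1, Mcm7, Cdc45, Rfc4, Rfc5, Lig1, Tk1 and Ccne2 between 1.6% and 17.4%. How many of their reads come from the overlapping gene was not tested. Pcna has annotated processed pseudogenes that could share its reads.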

How the data were processed

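RNA from sorted cells was made into libraries with Smart-Seq v4 and Nextera XT and sequenced in paired ends, per the labels' protocols. The submitters' processing notes name TopHat2, Bowtie2, featureCounts and the build GRCm38 (mm10), with versions not given in the sources used here. The authors deposited, for each library, raw counts per Ensembl gene, with no normalization. GENCODE M21 (GRCm38) gave 37607 of 39179 genes a symbol, position and exon length.

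The 53 genes and the other lists were chosen with earlier results of these data known. Genes were kept by filterByExpr (minimum count 10). edgeR 4.0.16 in R 4.3.3 was fitted to all 8 libraries with 1 mean per group, TMM factors and a robust quasi-likelihood test, with Benjamini-Hochberg adjustment over 11475 genes at 0.05. Fold changes are Bach2 over EV or Tfh over non-Tfh, and an interaction tested their difference. The biological coefficient of variation was 9.89%, with 4 residual degrees of freedom. With 2 libraries against 2, an exact permutation test of a single value cannot give a two-sided p below 0.333, so none was run. Replicate pairs differed by more than counting noise (chi-square per degree of freedom 5.67 to 8.81) and counted as separate samples. Alternatives were RLE and upper-quartile factors, no filter, a minimum count of 50, no robust step, a replicate block, a test against a 1.2-fold change, fits of 2 groups only, DESeq2 1.42.0 and leaving out each library. The procedure was tested on data simulated with a spread common to all genes. The changed genes were drawn only from genes above a minimum average level, so recovery of the lowest genes was not tested. There it recovered 20 of 50 genes changed 1.5-fold, 49 of 50 changed 2-fold and 50 of 50 changed 3-fold or 4-fold. It also called 9 of 11032 unchanged genes. Values by library are given, in each step, for up to 3 genes past the threshold with the smallest adjusted p and for the gene with the smallest change, and for up to 3 per step past the threshold in another comparison (so Tyms and Chaf1b are included), with up to 4 genes named per added list. Floors cover counting error only. Some items are not reported here.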

Additional observations from a re-analysis of the deposited data

How the results depend on the processing

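Of the genes past the threshold in a comparison, 0 changed direction under any alternative. The 22 genes that fell with Bach2 in Tfh cells became 4 when tested against a 1.2-fold change (Cdc6, Mcm5, Mcm10 and Uhrf1), and 21 to 33 with the other factors, filters and fits, 33 of them with no filter and 27 with DESeq2, which tested 52. Leaving out 1 library gave 2 to 28. In non-Tfh cells the count stayed at 0 except with no filter, where 1 fell (Rrm2). The genes lower in Tfh cells with EV were 7, against 3 for a 1.2-fold change (Cdt1, Uhrf1 and E2f2), 10 with no filter, 10 with only the 2 groups fitted, 8 with DESeq2 and 1 to 9 with 1 library left out. The 2 higher genes became 1 against a 1.2-fold change under both vectors (Rpa1), and, with Bach2, 1 when only the 2 groups were fitted and 1 to 2 with 1 library left out. The genes lower in Tfh cells with Bach2 were 28 to 39 under all alternatives, against 37. The interaction called 0 of the 53 genes except with no filter, where 4 were negative (Uhrf1, Mcm5, Rrm2 and Mybl2). The cause of these shifts was not tested.

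The labels give both groups of each comparison the replicate numbers 1 and 2 but do not tie them to a shared animal or day. Deviations of same-numbered libraries correlated at -0.00413 to 0.24. The highest values were between Tfh and non-Tfh cells of the same vector, 0.24 with Bach2 and 0.209 with EV. The main tests treated these libraries as independent, and the block below is a replicate effect common to both vectors. With a replicate block, 30 of the 53 genes fell in Tfh cells and 0 in non-Tfh cells. Between the cell types 38 of the 53 were lower in Tfh cells with Bach2 and 9 with EV. The interaction called 0 of the 53, and 3 of all 11475 genes, with positive values.

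With windows of only the 250 bases before the start, E2F-type motifs were in 13 of the 44 promoters, against 22 in the full windows, and TTGGCGC in 4, against 10, beside 10.8% and 3.85% of tested genes in the shorter windows. Depth limits the low genes: Orc1, Gins1, Pole2 and Fen1 lay under 10 CPM in Tfh cells with Bach2.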
